A study of Mus musculus with 6 samples.

Results

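Skipped long exons, the internal exons above 250 nt that some transcripts of a gene keep and others leave out, were examined in mouse hippocampus. They were chosen by length alone, as exon skipping events whose exon spans more than 250 bases. This gave 1750 events on 1595 exons of 1390 genes, of 29134 exon skipping events and 40961 splicing events of 5 types in the splicing table. Several events can share an exon with different neighbours, and 135 of the long exons had more than 1 event.

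Hippocampal RNA of control mice, labelled wild type (3 libraries), was compared with that of mice labelled hnRNP DL KD (3 libraries), called L-DL KD here. According to the methods, male wild-type C57BL/6 J mice were injected in both CA1 areas at 8 weeks of age with adeno-associated virus (AAV). The L-DL KD mice received several tandem L-DL shRNAs under the H1 promoter, with a CamkIIα promoter driving the zsGreen marker, and the controls received control shRNA at a higher titre. The study asked which RNA splicing patterns differ when L-DL, the long isoform of hnRNP DL, is lowered. The labels give the L-DL KD samples as knockdown in the genotype and as knockout in the description. The H1 promoter is active in most cell types, so that the shRNAs are not limited to neurons, while the tissue is labelled hippocampus and not CA1. Whether each library came from a separate mouse is not given in the sources used here, so that p-values measure the spread between these libraries, which may be technical.

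Most internal exons of mammals are short, and the spliceosome usually pairs the splice sites across an exon before it joins exons across introns. Long exons are therefore a small and unusual class. In neurons some of them code for whole protein segments, such as the giant exons of the ankyrins that anchor channels in axons. Others, often called poison exons, carry a stop codon in the reading frame, so that the transcript that keeps them is marked for nonsense-mediated decay. hnRNP DL is a nuclear RNA-binding protein of the heterogeneous nuclear ribonucleoprotein family.

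The results below turn on a few junctions, and each is identified by the bases that join when the exon is kept or left out. The bases were read from GENCODE vM21 transcripts on GRCm38, 15 on each side of a junction and 5′ to 3′ on the strand of the gene. Capitals mark bases of the long exon. The exons are those of Ahi1 (chr10:21070288-21070543, plus strand), Myo18a (chr11:77859019-77860331, plus strand), Srsf9 (chr5:115328347-115328704, plus strand), Nptn (chr9:58618663-58619010, plus strand) and Mapt (chr11:104298498-104299256, plus strand).
Ahi1, into the exon: ctggcttctcaaaagGGTGGCCATGAAGAG
Ahi1, out of the exon: GAGACCAAGGAATGAcagtcgctcagtaag
Ahi1, skipping: ctggcttctcaaaagcagtcgctcagtaag
Myo18a, into the exon: cttgaagagttccagGACGGCTCTCAACAG
Myo18a, out of the exon: AGAGTGACTAGCTCAcccaaccagccactg
Myo18a, skipping: cttgaagagttccagcccaaccagccactg
Srsf9, into the exon: cttcgaggacccgcgCCTCGTTGGGAGGAG
Srsf9, out of the exon: TGTTTAATGCAAGAGagatgctgaggatgc
Srsf9, skipping: cttcgaggacccgcgagatgctgaggatgc
Nptn, into the exon: gcgctgctcagaacgCTGGGTTTGTCAAGT
Nptn, out of the exon: TAAGCGTCCTTCAGAaaccaagaattgtca
Nptn, skipping: gcgctgctcagaacgaaccaagaattgtca
Mapt, into the exon: ggcatgtgactcaagAACCGGAGAAGGTCG
Mapt, out of the exon: TTCCTCAACTTAAAGctcgtgtggccagca
Mapt, skipping: ggcatgtgactcaagctcgtgtggccagca

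Gene counts totalled 16052529 to 17913064 reads per library, and junction counts over all events 6760349 to 7939931. The long exon events held 241761 to 293147 junction counts per library, of which 8.9% to 9.32% were skipping counts. Hnrnpdl, the targeted gene, had 2689 to 3120 counts in the controls and 2680 to 3939 in the libraries labelled L-DL KD (log2 fold change 0.03, standard error 0.12, adjusted p = 0.898 by edgeR). A lowering of the gene's total count was not detectable, and its isoforms were not measured apart. The paper assessed the knockdown by immunoblot of L-DL protein in injected hippocampus, which a total RNA count does not measure. Cell type markers differed between the groups. All 12 microglia markers rose, with summed levels of 1950 to 2460 CPM in the controls and 3840 to 5000 CPM in L-DL KD. Of 13 neuron markers, 11 fell and Nefl and Nefm rose, with summed levels of 9730 to 10400 CPM and 6330 to 7110 CPM. Of 8 markers of hippocampal pyramidal and granule cells, Bcl11b, Neurod6, Spink8 and Wfs1 fell, with 789 to 823 CPM and 570 to 613 CPM. Astrocyte markers summed to 7870 to 8020 CPM and 6160 to 7250 CPM, oligodendrocyte markers to 7920 to 8460 CPM and 6860 to 10000 CPM, and choroid plexus markers, which follow what was dissected, to 434 to 4600 CPM and 31.2 to 5170 CPM. No marker was at 0 in every library. In such bulk tissue fewer cells of a type and less RNA per cell cannot be told apart, and the part of cell mixture in the values below was not tested.

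Inclusion is given as PSI, the share that keeps the exon among the molecules of an event's inclusion and skipping forms. It was computed for each library from inclusion counts over an effective length of 298 and skipping counts over 149. Molecules with another form of the same exon are left out of it, so that PSI of overlapping forms can sum to more than 1. Events entered the test when each library held 20 junction counts or more on average, with a mean of 1 or more for each form. Of the 1750 events, 586 (33.5%) on 554 exons of 504 genes were tested. Of the 1164 others, 362 had under 20 counts, 776 had enough counts but fewer than 1 skipping count on average, and 26 fewer than 1 inclusion count. Most long exons that were not tested were therefore kept in nearly all molecules that the reads covered. A tested event held a median of 95.8 counts per library, from 20 to 17900. The median SD of PSI within a group was 0.0388.

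Annotation placed 859 of the 1595 exons wholly within a coding region and 327 partly. A further 142 lay in transcripts annotated as subject to nonsense-mediated decay, 196 in transcripts of other kinds, 66 in 5′ and 2 in 3′ untranslated regions, and 3 were not in the annotation. The length of 658 exons (41.3%) was divisible by 3. Among wholly coding exons the share was 48.1% of all and 58.3% of those tested, 168 of 288. Exon lengths ran from 251 to 9310 nt with a median of 378, and the longest tested exon had 8104 nt. In 127 exons an annotated intron of the same gene lay inside the exon, so that the exon spans a retained intron.

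Tested long exons were mostly kept in the controls, with a median PSI of 0.908. Taking each exon once, 286 of 554 had a control PSI above 0.9, 199 lay between 0.1 and 0.9 and 69 were below 0.1. Coding exons had a median control PSI of 0.936. Exons of nonsense-mediated decay transcripts had 0.138, and 5′ untranslated exons 0.139. Of the 59 tested exons of nonsense-mediated decay transcripts, 14 had a control PSI above 0.9. PSI is read from the RNA present. Here and below, skipping of such an exon and decay of the form that keeps it therefore cannot be told apart. At the length limit, the 15 tested events of 251 to 253 nt had a median control PSI of 0.84 and the 27 of 248 to 250 nt one of 0.952.

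The first question was whether long exons were kept less or more often in L-DL KD. PSI was lower in L-DL KD in 56.5% of the tested long exon events, against 52.7% of all 18829 tested events and 57.1% of the tested exon skipping events. The median change was -0.00456, against -0.00172 and -0.00486. All 3 L-DL KD libraries lay below all 3 controls in 67 long exon events (11.4%) and above them in 48 (8.19%). Over all tested events the shares were 10.8% and 7.6%, and over all tested exon skipping events 13.8% and 6.76%. The long exons thus stood close to the background of splicing events in both directions. Exons of 27 nt or less differed from this in the same table, with 42.3% of 452 events below and 3.1% above.

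**Figure D1:**
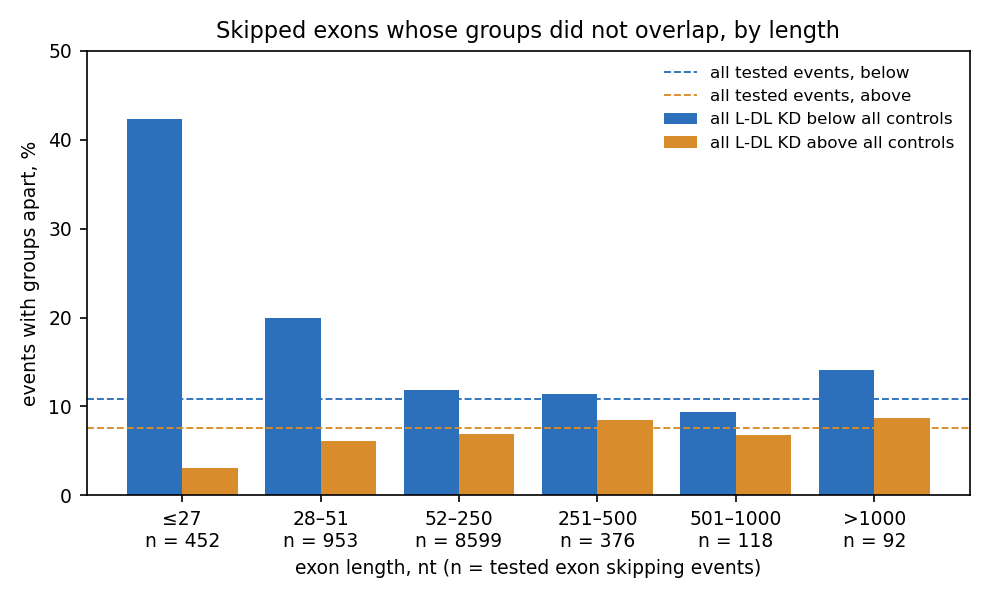
Percent of tested exon skipping events in which all 3 L-DL KD libraries lay below (blue) or above (orange) all 3 controls, by exon length in nt, with dashed lines for all tested events (10.8% and 7.6%). The blue bars went from 42.3% in the shortest class to 11.4% at 251 to 500 nt and 14.1% above 1000 nt.

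Within the long exons, 376 events of 251 to 500 nt had 11.4% below and 8.51% above, 118 events of 501 to 1000 nt had 9.32% and 6.78%, and 92 events above 1000 nt had 14.1% and 8.7%. PSI was lower in L-DL KD in 64.1% of the events above 1000 nt and in 54.3% of those of 251 to 500 nt. Where the controls kept an exon in fewer than 0.1 of molecules, groups apart were above the controls in 11.6% of exons and below in 2.9%. Where they kept it in more than 0.9, the shares were 6.64% above and 11.5% below. A PSI near 0 or 1 leaves room in 1 direction only. Coding exons with a length divisible by 3 had 17.3% below and 7.74% above, other coding exons 7.5% and 10%. The difference between these classes was not tested.

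The 47 exons that were higher in L-DL KD with groups apart had a median G and C content of 58.3%, the 64 lower ones 52.6% and the 443 others 52.1%. Their median upstream introns had 2376, 4111 and 2674 bases and their median downstream introns 1418, 1874.5 and 2132 bases. These values describe the exons and carry no test.

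**Figure D2:**
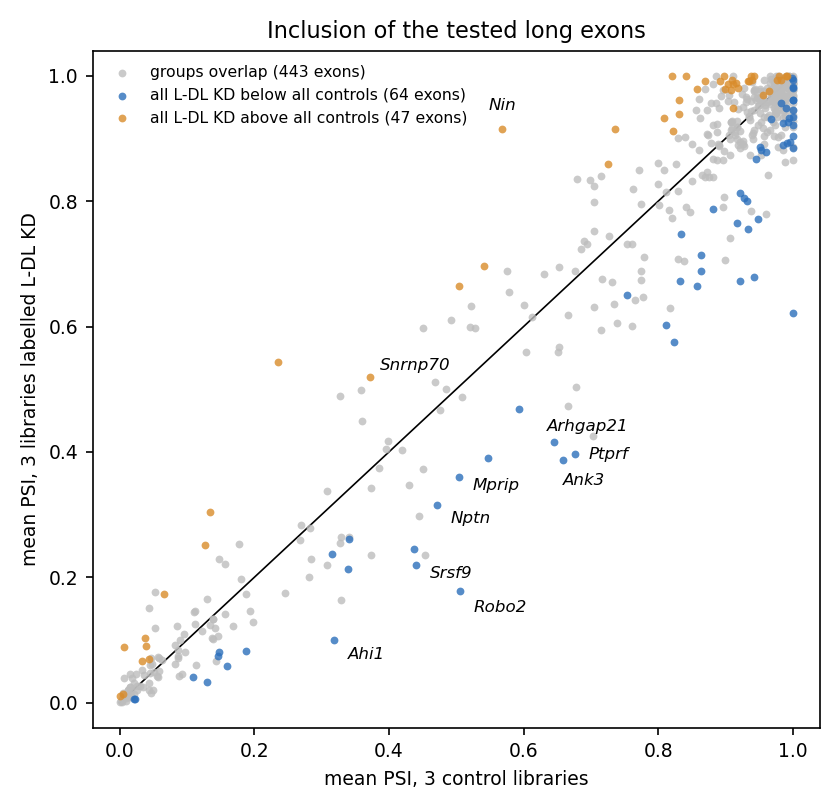
Mean PSI of each of the 554 tested long exons in the 3 control libraries (x axis) and the 3 L-DL KD libraries (y axis), with the diagonal as the line of no change. Blue points (64 exons) had all L-DL KD libraries below all controls, orange points (47 exons) above, and most exons lie near the upper right corner.

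Inclusion was tested by the quasi-likelihood test of edgeR, with p-values adjusted by Benjamini-Hochberg over all 18829 tested events, and 2 of 586 long exon events passed an adjusted p of 0.05 (0.341%), against 0.313% of all tested events and 0.415% of exon skipping events. The long exon of Ahi1 fell and that of Myo18a rose. Both calls depended on the setting, since with exon skipping events alone in the fit, or with limma, 0 long exon events passed, while 4 and 8 lay under an unadjusted p of 0.001 in these fits, and DESeq2 called 5. An unadjusted p of 0.001 was passed by 10 long exon events (1.71%), against 1.03% of all tested events and 1.47% of exon skipping events, 6 with lower and 4 with higher PSI. An unadjusted p of 0.05 was passed by 43 with higher PSI (7.34%, against 5.29%) and 55 with lower PSI (9.39%, against 7.88%). Among exon skipping events the shares were 5.97% and 11.6%, so that the long exons stood above all events but below their own event type in the share with lower PSI. With 3 libraries a group, an exact permutation test of a single exon cannot go below p = 0.1, and it gave this value wherever the groups did not overlap.

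Ahi1 encodes jouberin, a protein of the base of the primary cilium, and its 256 nt exon carries 4 stop codons in the frame. It is exon 21 of 24 in a transcript annotated for nonsense-mediated decay. PSI was 0.291, 0.373 and 0.293 in the controls and 0.0909, 0.0891 and 0.119 in L-DL KD. Every L-DL KD library lay far below every control. Inclusion counts were 133, 196 and 136 against 47, 44 and 44, while skipping counts were 162, 165 and 164 against 235, 225 and 163. The log2 ratio of inclusion to skipping fell by 2.06 (standard error 0.31, adjusted p = 0.0168). The gene's own count did not pass its test (log2 fold change -0.11, adjusted p = 0.315). The call was lost without any library but the first L-DL KD library (adjusted p 0.0435 to 0.127), while the change stayed between -2.18 and -1.88.

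Myo18a encodes an unconventional myosin of the Golgi and the actin skeleton. Its 1313 nt exon is partly coding and nearly absent from the controls. Inclusion counts were 2, 0 and 7 in the controls and 41, 42 and 60 in L-DL KD, beside 194 to 294 skipping counts in every library. PSI was 0.00339, 0 and 0.0149 against 0.0675, 0.0677 and 0.134, so that the groups lay apart. The log2 ratio of the forms rose by 4.01 (standard error 0.65, adjusted p = 0.0256). The gene's count had a log2 fold change of 0.14 (adjusted p = 0.131). Here too the call held without the first L-DL KD library and was lost without each of the others (adjusted p 0.0236 to 0.165), while the log2 ratio stayed between 3.44, without the second control, and 5.53, without the third.

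The 8 further exons under the unadjusted p of 0.001 had adjusted p-values of 0.0541 to 0.0891 and are described without a call. Bsg, R3hdm1 and Epb41l3 were added to the named exons after their values were seen.

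**Figure D3:**
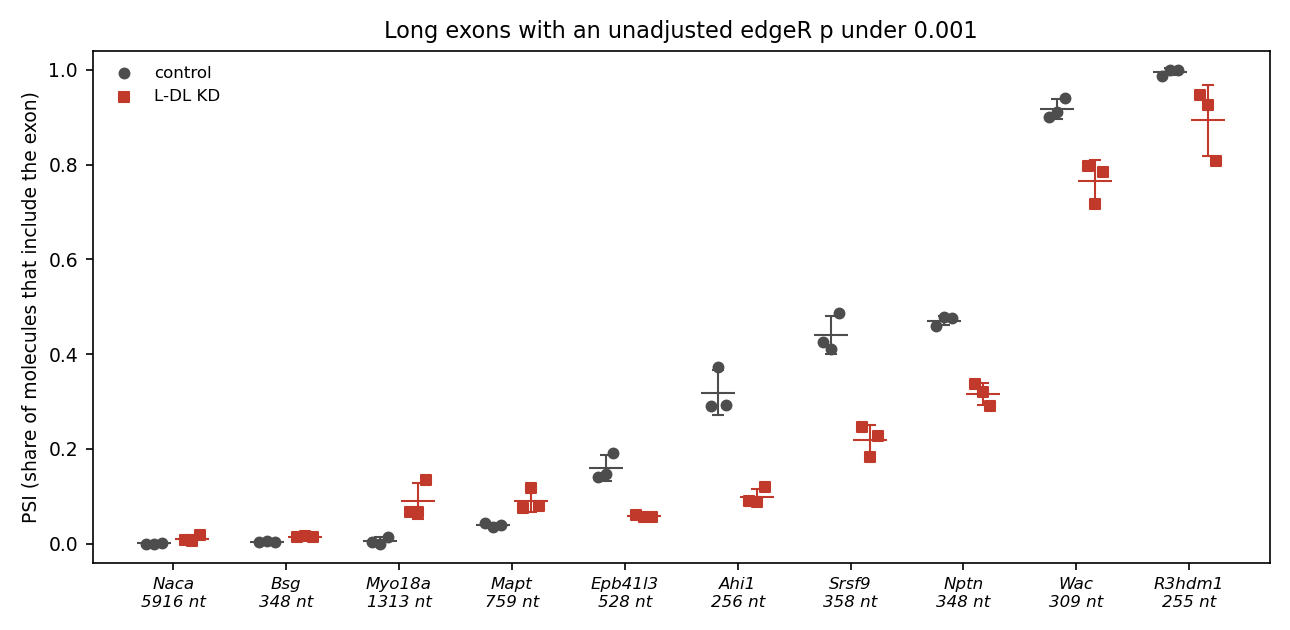
PSI of the 10 long exons with an unadjusted edgeR p under 0.001, with a point for each control (grey) and L-DL KD (red) library and bars for the mean and SD of 3 libraries, ordered by control PSI. Naca, Bsg, Myo18a and Mapt were higher and the other 6 lower in L-DL KD, and the groups did not overlap in any of them.

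Nptn and Bsg encode neuroplastin and basigin, sister membrane proteins of the immunoglobulin superfamily that chaperone pumps and transporters to the cell surface. In both genes a 348 nt exon, exon 2 of 8, codes for an extra immunoglobulin domain. With the exon the Nptn transcript gives the brain form Np65 and without it the widespread form Np55. The long form of basigin is known from photoreceptors. The 2 exons align over 348 bases without a gap, with 204 identical bases (58.6%). Their first 300 bases are shown because the shared domain is what the junctions keep or leave out, with capitals for bases that are identical in the other exon.
Nptn, chr9:58618663-58618962, plus strand: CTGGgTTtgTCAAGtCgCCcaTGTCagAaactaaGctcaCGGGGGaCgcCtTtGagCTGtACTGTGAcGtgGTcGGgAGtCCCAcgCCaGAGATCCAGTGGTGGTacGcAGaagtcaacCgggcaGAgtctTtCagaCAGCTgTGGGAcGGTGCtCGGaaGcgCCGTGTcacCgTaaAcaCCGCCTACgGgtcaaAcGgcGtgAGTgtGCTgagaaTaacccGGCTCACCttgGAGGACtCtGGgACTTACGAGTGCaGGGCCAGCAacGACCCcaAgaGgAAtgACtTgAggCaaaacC
Bsg, chr10:79708697-79708996, plus strand: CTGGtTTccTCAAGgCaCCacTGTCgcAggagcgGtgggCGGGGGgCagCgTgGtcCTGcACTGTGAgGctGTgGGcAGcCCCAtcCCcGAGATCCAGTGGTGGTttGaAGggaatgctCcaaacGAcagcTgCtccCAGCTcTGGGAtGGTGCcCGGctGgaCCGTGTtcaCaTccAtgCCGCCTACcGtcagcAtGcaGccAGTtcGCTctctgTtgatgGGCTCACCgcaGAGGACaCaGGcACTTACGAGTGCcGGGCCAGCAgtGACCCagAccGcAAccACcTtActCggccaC

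Nptn PSI was 0.459, 0.478 and 0.476 in the controls and 0.338, 0.32 and 0.291 in L-DL KD. The spread between libraries was small beside the difference, and the groups lay apart. Inclusion counts were 1278, 1236 and 1256 against 623, 520 and 408, and skipping counts 752, 675 and 690 against 611, 552 and 498. Both forms therefore had fewer counts in L-DL KD, and the Np65 form more so. The log2 ratio of the forms differed by -0.92 (standard error 0.2, adjusted p = 0.0768). By edgeR the adjusted p was 0.0461 with TMM scaling and 0.0916 to 0.265 with a library left out. It was 0.0751 by DESeq2 and 0.339 by limma. The Nptn gene count fell, from 463 to 227 CPM on average (log2 fold change -1.02, adjusted p = 0.000309). Neuron markers fell in the same libraries, as given above, and their part in the Nptn values was not tested.

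For Bsg the exon was rare in all libraries. PSI was 0.00306, 0.00668 and 0.00379 in the controls and 0.0141, 0.0158 and 0.0138 in L-DL KD, from 8, 19 and 12 inclusion counts against 60, 43 and 36. The L-DL KD libraries lay above the controls, with means of 0.0145 ± 0.00108 and 0.00451 ± 0.00192 (SD, 3 libraries each). The log2 ratio differed by 1.72 (standard error 0.33, adjusted p = 0.0541). The gene's count averaged 375 and 376 CPM. The related exons of Nptn and Bsg thus lay on opposite sides of their controls, and neither passed the adjusted test.

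Poison exons came next. Of the 59 tested exons assigned to nonsense-mediated decay transcripts, 54 had a frame that could be read from the upstream coding exon, and 52 of these held a stop codon in it. The first stops of 4 are shown because they are what ends the reading frame when the exon is kept. Capitals mark the stop codon.
Ahi1, chr10:21070312-21070341, plus strand: tcacaaaccaacTGAgaggtgtgtgtggaa
Srsf9, chr5:115328414-115328443, plus strand: acggattcacagTAGaagtactccggactt
Srsf3, chr17:29039473-29039502, plus strand: ctcaccaccctcTGAatctgcattagccag
Tra2b, chr16:22259166-22259195, minus strand: ctcaggaataagTGAagctgaaatttgaaa
These stops begin at base 37 of the Ahi1 exon, base 80 of Srsf9, base 32 of Srsf3 and base 79 of Tra2b, counted from the 5′ end of the exon.

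Srsf9, Srsf3 and Tra2b encode serine and arginine rich splicing proteins, whose family keeps its own levels in check through such exons. Srsf9 PSI was 0.426, 0.41 and 0.486 in the controls and 0.247, 0.184 and 0.227 in L-DL KD. The groups lay apart, with skipping counts of 83, 102 and 82 against 178, 218 and 165. The log2 ratio differed by -1.47 (standard error 0.31, adjusted p = 0.0679). The adjusted p was 0.033 by DESeq2 and 0.205 by limma. By edgeR it was 0.0524 with TMM scaling and 0.1 to 0.265 with a library left out. The Srsf9 gene count had a log2 fold change of 0.1 (adjusted p = 0.32).

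The same was not seen in its relatives. Srsf3 PSI was 0.13, 0.218 and 0.123 in the controls and 0.243, 0.21 and 0.211 in L-DL KD, so that the second control lay within the range of L-DL KD (adjusted p = 0.388). Tra2b PSI was 0.141, 0.116 and 0.162 against 0.171, 0.0671 and 0.164 (adjusted p = 0.951). In Srsf6, Tra2a and the 261 nt exon of Srrm2, mean PSI stayed below 0.1 in both groups, and the groups overlapped. Among all 59 exons of this kind, groups lay apart below the controls in 10.2% and above in 3.39%, against 10.8% and 7.6% of all tested events and 13.8% and 6.76% of exon skipping events. The lower ones were those of Ahi1, Srsf9, Tm2d2, Naa60, Pde4b and Dmtf1 and the higher ones those of Nkiras1 and Slc35a2, named here after their values were seen.

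The list of 76 RNA processing genes held 19 long exons in 18 genes, of which 11 were tested. No exon of the list passed the adjusted test, and at an unadjusted p of 0.05 Srsf9 was lower and Snrnp70 higher, where 7.88% of all tested events were lower and 5.29% higher. Snrnp70 encodes the U1-70K protein of the U1 snRNP, which marks 5′ splice sites, and its 1360 nt exon (chr7:45381825-45383184, minus strand) lies in a transcript that is not annotated as protein-coding. PSI was 0.379, 0.313 and 0.424 in the controls and 0.571, 0.47 and 0.519 in L-DL KD (log2 ratio 0.9, standard error 0.26, adjusted p = 0.173). The groups lay apart, and the gene's count rose (log2 fold change 0.28, adjusted p = 0.0318). The 271 nt exon of Srrm2, a speckle scaffold, had 0.97, 0.963 and 0.959 against 0.981, 0.972 and 0.976, with a gap of less than the SD between the groups (adjusted p = 0.634).

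**Figure D4:**
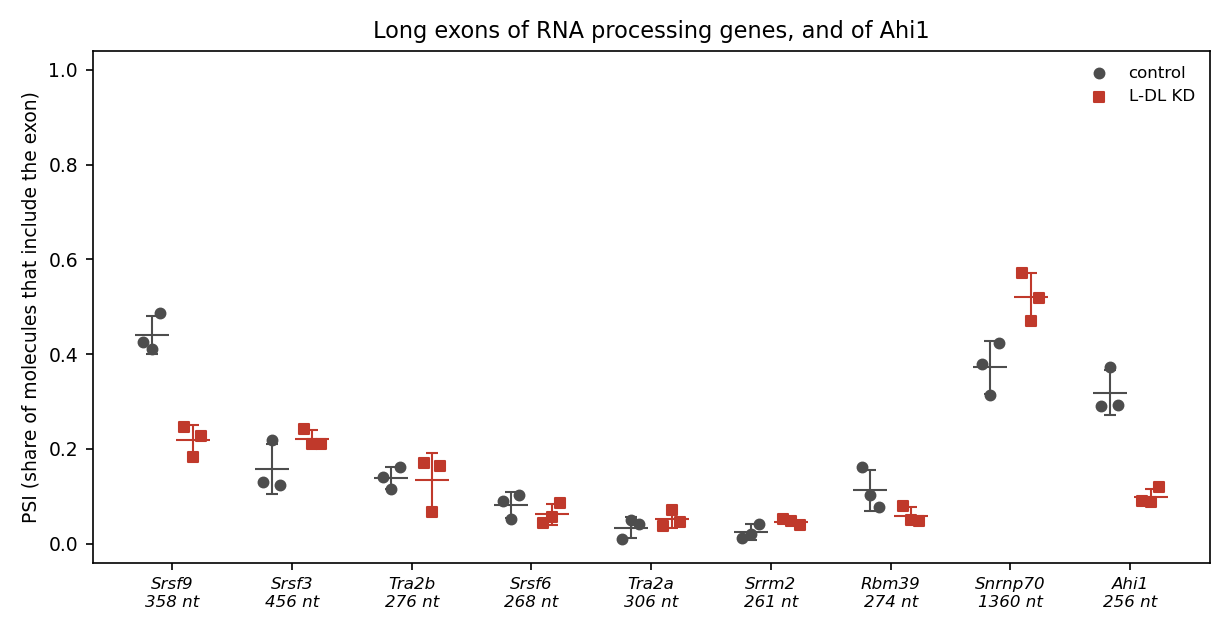
PSI of long exons of RNA processing genes, 7 of them in nonsense-mediated decay transcripts, and of the Ahi1 poison exon, with a point for each control (grey) and L-DL KD (red) library and bars for the mean and SD of 3 libraries. Srsf9 and Ahi1 lay lower and Snrnp70 higher in L-DL KD without overlap, while the groups overlapped in the other exons plotted, among them the 261 nt exon of Srrm2.

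Proteins of the cytoskeleton and the membrane skeleton shape axons and dendrites. Of the 48 genes of this list, 27 had a long exon, 36 exons in all, and 24 of these in 19 genes were tested. No exon passed the adjusted test, and at an unadjusted p of 0.05, 8 were higher and 4 lower in L-DL KD, against 5.29% and 7.88% of all tested events. The higher ones were 2 forms of a Mapt exon and 2 of an Ank1 exon, each pair with shared skipping counts, and those of Dst, Macf1, Nav2 and Sptbn4, and the lower ones those of Ank3, Epb41l1, Epb41l3 and Mprip. The median change over the 24 exons was 0.00367, against -0.00172 over all tested events.

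Mapt encodes tau, which binds microtubules, and its long exon 4A makes the big tau of peripheral neurons. It was annotated in a form of 759 nt and a form of 711 nt with a later 3′ splice site. The start of the longer form is shown with its 48 extra bases in capitals.
Mapt, chr11:104298498-104298575, plus strand: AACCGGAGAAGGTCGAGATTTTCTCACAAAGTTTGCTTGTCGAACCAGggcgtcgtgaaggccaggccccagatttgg
PSI of the 759 nt form was 0.0441, 0.035 and 0.0401 in the controls and 0.0749, 0.117 and 0.0807 in L-DL KD, and the groups lay apart. Inclusion counts were 38, 31 and 35 against 92, 157 and 86. The log2 ratio differed by 1.28 (standard error 0.29, adjusted p = 0.0891). The 711 nt form had 0.0329, 0.0394 and 0.0278 against 0.051, 0.084 and 0.0667 (log2 ratio 1.08, adjusted p = 0.161). The forms share their skipping counts and are not independent. The Mapt gene count had a log2 fold change of 0.21 (adjusted p = 0.0522).

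Protein 4.1 genes link spectrin and actin to membrane proteins. The 528 nt exon of Epb41l3 (exon 8 of 17) had PSI of 0.141, 0.147 and 0.191 in the controls and 0.0605, 0.0571 and 0.057 in L-DL KD (log2 ratio -1.57, standard error 0.35, adjusted p = 0.0888). Its gene count fell (log2 fold change -0.91, adjusted p = 0.000647). The 408 nt exon of Epb41l1, mostly kept, had 0.986, 0.98 and 0.981 against 0.967, 0.948 and 0.953 (adjusted p = 0.165). In both genes the L-DL KD libraries lay below the controls, and in Epb41 and Epb41l2 the groups overlapped.

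The giant exons of the ankyrins code for the long tail of the axonal forms. The 7674 nt exon of Ank3 (chr10:69986089-69993762, plus strand), which encodes ankyrin-G of the axon initial segment, had PSI of 0.623, 0.7 and 0.65 in the controls and 0.24, 0.52 and 0.402 in L-DL KD. The groups lay apart, on only 38 to 85 counts per library (log2 ratio -1.66, standard error 0.63, adjusted p = 0.305). An overlapping shorter form of 2550 nt, which shares its skipping counts, had 0.803, 0.798 and 0.731 against 0.516, 0.81 and 0.618, with overlap. The Ank3 gene count fell (log2 fold change -0.44, adjusted p = 0.00499). The 6198 nt exon of Ank2, of the giant ankyrin-B of axons, had 0.305, 0.324 and 0.316 against 0.258, 0.239 and 0.216 (log2 ratio -0.53, standard error 0.25, adjusted p = 0.388). The groups lay apart there as well, while the Ank2 gene count did not pass its test (adjusted p = 0.456).

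Of the other exons among the 5 longest tested, the 8104 nt exon of Map1a, a microtubule-associated protein, was kept in nearly all molecules, at 0.978 to 1 in the controls and 0.988 to 1 in L-DL KD. That of Rai1 (5527 nt) ranged from 0.982 to 1 and from 0.929 to 1. The 5916 nt exon of Naca gives the muscle form of a chaperone subunit that sits at the ribosome. It had 0, 1 and 2 inclusion counts in the controls and 15, 11 and 39 in L-DL KD, so that PSI was at most 0.00151 and 0.0193 (log2 ratio 3.82, standard error 0.83, adjusted p = 0.0754). The Naca gene count rose (log2 fold change 0.44, adjusted p = 0.00495).

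**Figure D5:**
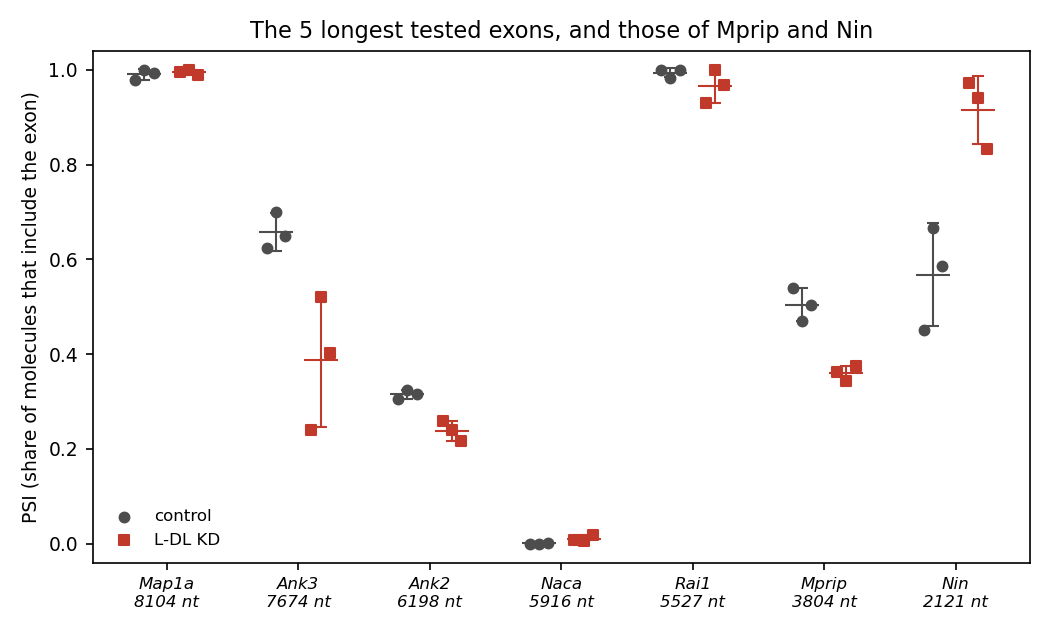
PSI of the 5 longest tested exons and of the exons of Mprip and Nin, with a point for each control (grey) and L-DL KD (red) library and bars for the mean and SD of 3 libraries. Ank3, Ank2 and Mprip lay lower in L-DL KD and Nin higher, without overlap, while Map1a and Rai1 stayed near 1 and Naca near 0.

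Further exons were named for the size of the difference, among those with an unadjusted p under 0.01 and groups apart. The 2121 nt exon of Nin (chr12:70042132-70044252, minus strand) codes for a large part of ninein, a centrosome protein that neurons make mostly without this exon. PSI was 0.451, 0.667 and 0.585 in the controls and 0.971, 0.94 and 0.833 in L-DL KD. The difference of 0.347 was the largest towards higher PSI among the named exons, on only 37 to 67 counts per library (log2 ratio 3.08, standard error 0.82, adjusted p = 0.138). The 273 nt exon of Robo2, a receptor for axon guidance cues, had 0.369, 0.642 and 0.508 against 0.209, 0.154 and 0.174, a difference of -0.327 (log2 ratio -2.19, standard error 0.54, adjusted p = 0.117).

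The 275 nt exon of Arhgap21 had 0.605, 0.717 and 0.615 in the controls and 0.42, 0.445 and 0.384 in L-DL KD (adjusted p = 0.121). The 3804 nt exon of Mprip, which brings myosin phosphatase to actin, had 0.539, 0.469 and 0.504 against 0.362, 0.343 and 0.375 (adjusted p = 0.214). The 309 nt exon of Wac, an adaptor with a WW domain, had 0.9, 0.91 and 0.941 against 0.796, 0.716 and 0.785 (adjusted p = 0.0551). For Wac the adjusted p was 0.0399 by DESeq2 and 0.195 by limma. By edgeR it was 0.0421 with TMM scaling and 0.0651 to 0.242 with a library left out. The 255 nt exon of R3hdm1 had 0.987, 1 and 1 against 0.947, 0.925 and 0.808 (adjusted p = 0.0773). In the exon of Srp19, a signal recognition particle protein, which spans retained introns, mean PSI was 0.933 and 0.755.

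Among the named exons with higher PSI in L-DL KD, mean PSI was 0.831 and 0.962 for the 1307 nt exon of the kinase gene Speg, 0.809 and 0.932 for the 439 nt exon of the zinc transporter Slc39a7, and 0.831 and 0.939 for the 272 nt exon of the ubiquitin ligase Rnf41. For Slc35a2, which carries UDP-galactose into the Golgi, the 1276 nt and 728 nt forms of an exon share their skipping counts and had 0.892 and 0.991, and 0.91 and 0.994. The 453 nt exon of Nav2, a neuron navigator, had 0.931, 0.843 and 0.92 in the controls and no skipping count in L-DL KD. With the 3 counts that a count of 0 allows over the group, its PSI there would be 0.969. None of these passed the adjusted test (adjusted p 0.125 to 0.209).

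Synapse genes gave few long exons to test. Of 65 listed genes, 15 had a long exon and 4 had a tested one, with 5 exons. At an unadjusted p of 0.05 the 306 nt exon of Ptprf was the only one to pass, with lower PSI, as did 7.88% of all tested events. Ptprf encodes LAR, an adhesion phosphatase of synapses, and PSI was 0.575, 0.81 and 0.643 in the controls and 0.486, 0.406 and 0.3 in L-DL KD (log2 ratio -1.61, standard error 0.57, adjusted p = 0.265). Its 579 nt exon had 0.455, 0.76 and 0.87 against 0.614, 0.867 and 0.712. The exons of Adgrl3, Dlgap4 and Nrxn3 were kept at a mean of at least 0.924 in both groups, and the groups overlapped.

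Host gene expression is a readout that the length rule did not use. Of 498 genes with a tested long exon and enough counts, 94 rose (18.9%, against 15.6% of all 17621 tested genes) and 107 fell (21.5%, against 15%) at an adjusted p of 0.05. The host genes had also passed the junction count filter of the splicing test, which was not asked of all tested genes. The sets were not matched by count, and the part of this filter in the shares was not tested. The median log2 fold change was -0.02 for host genes and 0.01 for all genes. Among the genes of exons that were higher with groups apart, 47.6% changed in expression, among those of lower exons 37.7% and among those of the other exons 40.4%. Of the 33 exons named by the rule given below, 14 lay in genes whose count changed, among them Nptn, Ank3 and Snrnp70. The exons of Bsg, R3hdm1 and Epb41l3, added later, are not among the 33.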

How the data were processed

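The authors deposited unnormalised counts of reads for each Ensembl gene, and an rMATS table of junction counts of inclusion and skipping forms, both from 150 nt read pairs of oligo(dT)-selected RNA aligned to GRCm38 (mm10). The submitters' processing notes name HISAT2 (2.1.0), HTSeq (0.6.1) and Bowtie (1.1.2). The p-values, FDR and PSI in the deposited table are the authors' own comparison and were not used. Sample group 1 of that table was taken as L-DL KD and group 2 as control, from the paper's definition of the PSI change. Its libraries carry no replicate number and are named in table order. Whether gene counting used strand is not given in the sources used here.

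Inclusion and skipping counts of the 6 libraries (12 columns) were fitted with edgeR (4.0.16), in a model of library effects, a term for the inclusion form and its interaction with group, the tested term (quasi-likelihood), column totals as library sizes, and Benjamini-Hochberg adjustment over all tested events of the 5 types. For gene expression, TMM scaling and the same kind of edgeR test were applied to genes reaching 10 counts in 3 or more libraries. Alternatives used limma (3.58.1) on the log2 ratio with a pseudocount of 0.5, DESeq2 (1.42.0), other filters and scalings, and the omission of each library. Both models were tested on simulated data. Annotation and bases came from GENCODE vM21, and exons were aligned with Biopython (1.88). Work was done in R (4.3.3) and Python (3.11.15).

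Each exon was taken once, by its event with the most counts. Named were the Mapt exon 4A with the most counts, every exon with an adjusted p under 0.05, the 8 largest rises and 8 largest falls in PSI among exons with p under 0.01 and groups apart, the 5 longest tested exons, and of each gene list the 5 tested exons with the most counts and a mean PSI of at most 0.98. The exons, lists and tests were chosen with earlier results of these data known. Splice site and intron sequences were not analysed here, since no genome sequence was used. Counts without molecular identifiers are not independent molecules, so that the 3 counts allowed by a count of 0 cover counting error only.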

Additional observations from a re-analysis of the deposited data

How the results depend on the processing

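The count of 2 long exon events past the adjusted p was 4 with TMM factors, 5 with DESeq2, 0 with limma, 0 with exon skipping events alone, 1 for exons above 500 nt (of 210 tested) and 0 to 2 with a library left out. It was 0 without each library but the first L-DL KD library. The count of 10 under the unadjusted p of 0.001 was 4 with exon skipping events alone, 4 above 500 nt and 3 to 10 with a library left out, at 3 to 5 without each library but the first L-DL KD library. Of 115 events with groups apart, 40 lay above 500 nt. The median PSI change kept its sign in every alternative run, between -0.00906 and -0.00262. Without effective lengths, the PSI change of many named exons moved in size. It went from 0.0837 to 0.151 for Myo18a, from 0.051 to 0.0895 for the 759 nt form of Mapt and from -0.151 to -0.0896 for Wac. For others, such as Snrnp70 (0.148 and 0.143), it stayed near its value. Of the 33 exons named by the rule given above, the log2 ratio changed sign for Map1a, the 579 nt exon of Ptprf and Tra2b. Map1a had -0.22 without the first control, in a range up to 2.13 with a library left out. The Ptprf exon had -0.71 without the first control and -0.29 without the second L-DL KD library, up to 0.82. Tra2b had 0.01 without the third control and 0.34 without the second L-DL KD library, down to -0.35. The cause of these moves was not tested, and a fit without a library has fewer samples. Using the total of both forms as library size, chosen after seeing the data, gave 2 and 9 events.

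The 201 host genes with changed expression were 132 to 235 with a library left out, lowest without control replicate 1, and 177 with the replicate number as a block. The deviations of same-numbered gene count libraries from their group means had r of 0.067, 0.179 and -0.163 across genes. Differently numbered libraries had -0.258 to 0.189. Deviations within a group cancel out, so that these values cannot decide whether the numbers pair the libraries. No paired analysis was run for the splicing events, whose columns carry no replicate numbers. Of 1750 events, 1164 were not tested. By the limits given above, 362 of these lacked counts in all, 776 lacked skipping counts and 26 lacked inclusion counts.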

Other observations

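A few more pairs of related exons were noted after their values were seen. Dst and Macf1 encode the spectraplakins, giant linkers of actin and microtubules, and each has a tested 327 nt coding exon. The exons align without a gap and share 200 of 327 bases (61.2%). Dst PSI was 0.36, 0.312 and 0.401 in the controls and 0.547, 0.556 and 0.395 in L-DL KD, so that a single L-DL KD library lay within the control range (log2 ratio 0.88, standard error 0.38, edgeR adjusted p = 0.356). Macf1 PSI was 0.482, 0.588 and 0.552 against 0.734, 0.62 and 0.733, with the groups apart (log2 ratio 0.96, standard error 0.42, edgeR adjusted p = 0.358). Neither passed the adjusted test. The Dst gene count rose (log2 fold change 0.61, adjusted p = 0.00359), and that of Macf1 did not pass (log2 fold change 0.18, adjusted p = 0.228).

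Fgfr1, a fibroblast growth factor receptor, has a long exon that codes for its outermost immunoglobulin domain, annotated with 267 and 306 nt. PSI of the 267 nt form was 0.944, 0.976 and 0.96 in the controls and 0.922, 0.869 and 0.846 in L-DL KD (log2 ratio -1.66, standard error 0.45, edgeR adjusted p = 0.146). The 306 nt form, which shares its skipping counts, had 0.901, 0.962 and 0.934 against 0.868, 0.777 and 0.757 (log2 ratio -1.74, edgeR adjusted p = 0.158). The L-DL KD libraries lay below the controls in both forms.

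Tm2d2 had no skipping count of its 609 nt exon in the controls and 10, 7 and 4 in L-DL KD, beside 135 to 168 inclusion counts per library (edgeR adjusted p = 0.0982). Nkiras1, an inhibitor of NF-kappa-B signalling, had PSI of 0.023, 0.0514 and 0.0377 against 0.0938, 0.105 and 0.11 for its 258 nt exon, annotated in a nonsense-mediated decay transcript (edgeR adjusted p = 0.129), and its gene count fell (log2 fold change -0.64, adjusted p = 0.00298).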
